A study of Mus musculus with 6 samples.

Results

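The RNA of 10 genes in peritoneal macrophages (PMs) was compared between 3 control and 3 diseased-BWF1 mice: Cnbd2, Cgnl1, Ppfibp1, Tmem154, Col22a1, Slc4a5, Mrvi1, Tspan8, Cracd and Gm36227. They are 10 of the 32879 genes to which the counted RefSeq records could be assigned. They were chosen by their very large difference in counts between these same groups, so their values are given as a description and no test was run on them. Mrvi1 is also called Irag1, and Cracd is also called C530008M17Rik. PMs were sorted as cells positive for F4/80 and CD11b, and RNA of each mouse was sequenced as 1 stranded mRNA library. The control mice were non-autoimmune female [NZW × BALB/c]F1 mice of 33, 33 and 30 weeks. The diseased-BWF1 mice were female lupus-prone [NZB × NZW]F1 mice of 31, 31 and 34 weeks with high titers of antibodies against double-stranded DNA and severe proteinuria. The labels give no treatment for either group. Both groups carry 1 NZW parent, while the other parent was BALB/c in control mice and NZB in diseased-BWF1 mice. Strain and disease therefore cannot be told apart for any value below. Between 3376669 and 4604336 counts per mouse fell on genes, so that 3 counts, taken as the floor of detection, corresponded to 0.652 to 0.888 CPM, the counts divided by a library's counts on genes and put on one scale. The floor allows for error of counting alone, since copies made by PCR are not separate molecules.

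The genes encode proteins of unrelated kinds. Col22a1 encodes collagen XXII, a collagen of tissue junctions, and Slc4a5 encodes an electrogenic sodium bicarbonate cotransporter that moves bicarbonate across the plasma membrane. Cnbd2 encodes a cyclic nucleotide binding protein known from spermatogenic cells, Tmem154 a little-characterised transmembrane protein, and Gm36227 is annotated as a long noncoding RNA. Tspan8 encodes a tetraspanin, one of a family of membrane proteins that assemble other proteins into membrane microdomains. Cracd encodes an inhibitor of the actin capping protein, and Cgnl1 encodes paracingulin, a protein of cell junctions. Mrvi1 encodes a substrate of the cGMP-dependent kinase that sits on the inositol trisphosphate receptor and restrains calcium release, and Ppfibp1 encodes liprin beta 1, a scaffold protein.

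Promoter sequences are shown because these genes differ at the level of RNA between groups that differ in a parental strain. Whether the strains differ in these sequences was not tested. RefSeq gave a promoter window on GRCm38.p6 for 8 of the 10 genes, 9 windows in all. The build is that of C57BL/6J mice, so none of the letters was read from NZW, BALB/c or NZB DNA. The 250 bases before the start are shown for Slc4a5 and Tspan8, which were listed at 0 counts in one group, and for Gm36227 and Tmem154, whose difference came from a single record. The capitals mark a match to a searched motif. The windows are chr6:83237125-83237374 (plus strand) for Slc4a5, chr10:115817034-115817283 (plus strand) for Tspan8, chr9:41919199-41919448 (minus strand) for Gm36227 and chr3:84665942-84666191 (plus strand) for Tmem154.
Slc4a5: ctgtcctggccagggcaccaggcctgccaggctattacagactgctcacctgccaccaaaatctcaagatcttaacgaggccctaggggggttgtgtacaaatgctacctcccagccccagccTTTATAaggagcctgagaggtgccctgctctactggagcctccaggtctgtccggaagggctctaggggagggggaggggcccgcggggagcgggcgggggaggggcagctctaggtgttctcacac
Tspan8: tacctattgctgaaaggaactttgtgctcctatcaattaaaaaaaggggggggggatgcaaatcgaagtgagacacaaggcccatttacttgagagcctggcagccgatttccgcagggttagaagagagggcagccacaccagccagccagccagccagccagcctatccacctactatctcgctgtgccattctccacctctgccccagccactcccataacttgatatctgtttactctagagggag
Gm36227: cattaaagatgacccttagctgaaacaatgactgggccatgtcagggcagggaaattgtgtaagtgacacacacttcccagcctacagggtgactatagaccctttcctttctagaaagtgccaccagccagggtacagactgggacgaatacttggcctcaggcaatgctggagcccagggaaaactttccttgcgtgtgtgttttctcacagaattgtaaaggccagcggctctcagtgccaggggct
Tmem154: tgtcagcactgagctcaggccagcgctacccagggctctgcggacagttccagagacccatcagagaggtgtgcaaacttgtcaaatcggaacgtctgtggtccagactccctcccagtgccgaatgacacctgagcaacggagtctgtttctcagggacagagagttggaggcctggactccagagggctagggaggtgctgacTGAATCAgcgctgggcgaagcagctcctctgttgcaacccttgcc

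On both strands of the whole 300-base windows 8 motifs were searched. These were the TATA box TATAAA, the PU.1 motif GAGGAAGT, the AP-1 motif TGANTCA, the cAMP response element TGACGTCA, the E-box CACGTG, the GATA motif AGATAAG, and, by name alone, an interferon response element and a DR1 nuclear receptor repeat, each allowing any base at its spacer. Of all 32851 RefSeq promoter windows, TATAAA was found in 13.6%, TGANTCA in 7.81% and AGATAAG in 3.04%. The Slc4a5 window held TATAAA on its minus strand, beginning 127 bases before the start. The Tmem154 window held TGAATCA beginning 45 bases before the start, and 1 of the 2 Mrvi1 windows held AGATAAG on its minus strand, beginning 83 bases before it. Both Mrvi1 windows and the Cracd window lie at the starts of curated transcripts that had 0 counts in all 6 mice. Which starts the counted, predicted records of these genes use was not examined. Neither the Tspan8 nor the Gm36227 window held any of the 8 motifs. These matches are a description of letters and not of bound sites. The windows differed in composition. Those of Ppfibp1 and Cgnl1 had a GC content of 77.3% and 73.3% with 40 and 30 CpG dinucleotides, against a median of 52.7% and 7 over all windows, whereas the other 7 windows had 46.3% to 62.7% GC and 1 to 8 CpG.

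The name "near on-off" was checked against the counts. With at most 3 counts in every mouse of one group taken as off, 4 of the 10 genes met it, and all 4 were listed at 0 in that group. Col22a1 and Slc4a5 were at 0 in control mice, and Tspan8 and Cracd were at 0 in diseased-BWF1 mice. Gm36227 joined them when up to 10 counts were allowed. The other 5 genes, Tmem154, Cnbd2, Cgnl1, Mrvi1 and Ppfibp1, were well above the floor in every mouse of both groups and differed in degree. In RNA of a cell population, fewer cells of a type and less RNA per cell cannot be told apart, which holds for each value that follows.

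Col22a1 had 0 counts in each control mouse and 101, 168 and 72 counts in the diseased-BWF1 mice. Normalized for library size, the diseased-BWF1 mean was 112.7 ± 51.0 (SD, n = 3), at least 37.5-fold higher than in control mice taken at the floor of 3 counts per library. The 3 diseased-BWF1 mice were spread more widely for this collagen than for any other of the 10 genes in its higher group, with a coefficient of variation of 45.3%, and replicate 2 stood highest. Slc4a5 had 0 counts in each control mouse and 70, 38 and 58 counts in the diseased-BWF1 mice. Its diseased-BWF1 mean was 54.4 ± 14.3 normalized counts, at least 18.1-fold higher than the control mice on the same floor. Here replicate 2 was the lowest of the diseased-BWF1 mice, the reverse of Col22a1. These bounds are of the means. Between the lowest diseased-BWF1 mouse and the highest control floor, the bounds were 21.1-fold for Col22a1 and 11.2-fold for Slc4a5. For both genes a control mouse with a transcript under the floor could not be told from one with none.

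Tspan8 and Cracd had the opposite pattern. Tspan8 had 30, 21 and 20 counts in control mice and 0 in each diseased-BWF1 mouse. After normalization the control mice lay close together at 23.1 ± 1.62, a mean at least 7.80-fold above the diseased-BWF1 mice taken at the floor. Cracd had 39, 47 and 25 counts in control mice and 0 in each diseased-BWF1 mouse. The control mean was 36.4 ± 10.5 normalized counts, at least 12.3-fold above the diseased-BWF1 mice on the same floor. Between the lowest control mouse and the highest diseased-BWF1 floor, the bounds were 7.11-fold for Tspan8 and 9.45-fold for Cracd. Both genes had few counts even where present, and no control mouse held more than 47 counts of either, so these folds are limited by depth.

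**Figure D1:**
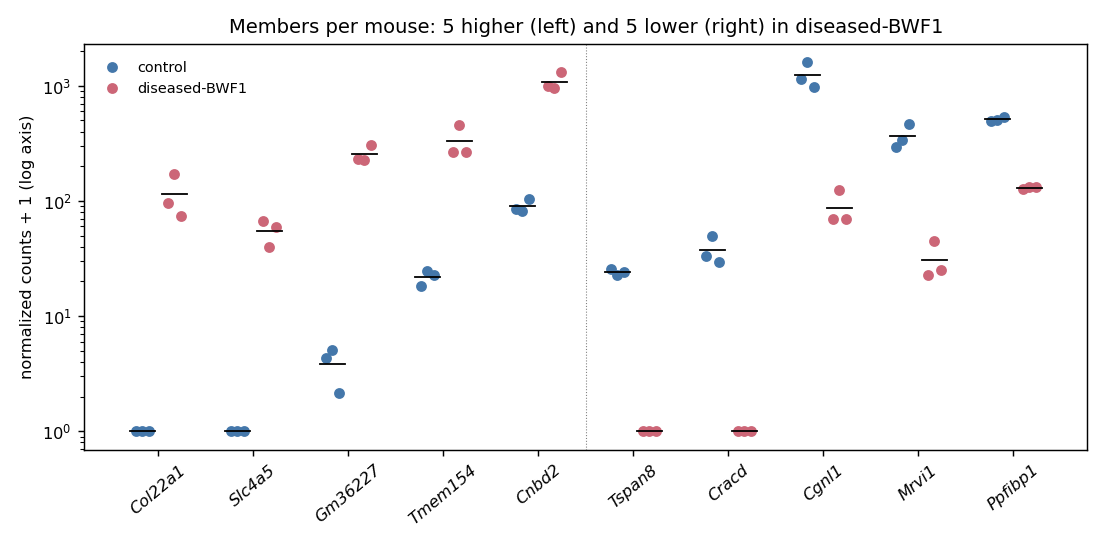
Normalized counts plus 1 (log axis) of the 10 genes in each mouse, with control mice in blue, diseased-BWF1 mice in red and the group mean as a black line. The groups are apart for every gene, since the genes were chosen for it, and the points at 1 are mice with 0 counts.

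Among the genes present in both groups, Gm36227 had the widest gap. It had 4, 4 and 1 counts in control mice and 246, 225 and 302 counts in diseased-BWF1 mice. The means were 2.86 ± 1.53 and 254.9 ± 43.1 normalized counts, a ratio of 89.2, and the edgeR fit over all genes gave a log2 fold change of 6.38 with a standard error (SE) of 0.31. The control values of this noncoding RNA lie at the floor, so the ratio carries a large counting error. Tmem154 had 21, 23 and 19 counts in control mice and 283, 452 and 264 counts in diseased-BWF1 mice. The means were 21.0 ± 3.23 and 330 ± 110, with a log2 fold change of 3.98 (SE 0.29). As for Col22a1, the diseased-BWF1 mouse of replicate 2 stood above the other two. Cnbd2 had 102, 78 and 90 counts in control mice and 1043, 947 and 1304 counts in diseased-BWF1 mice. Its means were 89.3 ± 12.3 in control and 1086 ± 199 normalized counts in diseased-BWF1 mice, with a log2 fold change of 3.601 (SE 0.19), so this gene was present in every mouse and about as far apart between the groups as Mrvi1 in the opposite direction.

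Cgnl1 had 1369, 1549 and 843 counts in control mice and 72, 121 and 68 counts in diseased-BWF1 mice. The means were 1231 ± 324 and 86.4 ± 31.3 normalized counts, and the fitted log2 fold change was -3.84 (SE 0.31), so this junction gene was low but not absent in diseased-BWF1 mice. Mrvi1 had 357, 325 and 407 counts in control mice and 23, 43 and 24 counts in diseased-BWF1 mice. Its means were 366 ± 90.2 and 29.8 ± 12.0, a log2 fold change of -3.62 (SE 0.31). Diseased-BWF1 replicate 2 was again the highest of its group for both genes. Ppfibp1 had 601, 489 and 469 counts in control mice and 133, 130 and 131 counts in diseased-BWF1 mice. Its means were 513 ± 22.4 and 129.8 ± 3.65, a ratio of 3.95 and a log2 fold change of -1.98 (SE 0.11). This was the smallest difference of the 10 genes and the one with the least spread, with a coefficient of variation of 4.36% in control mice.

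In all 10 genes the counts of the groups did not overlap. Groups without overlap were found for 2187 of the 10505 genes that passed the low-count filter (20.8%), and for the 10 genes this belongs to the choice. Ordered by the size of the fitted log2 fold change among these 10505 genes, Col22a1 ranked 1, Slc4a5 3, Cracd 5, Tspan8 6 and Gm36227 9, while Tmem154, Cgnl1, Mrvi1 and Cnbd2 ranked 30 to 39 and Ppfibp1 ranked 143. The order of the first 4 rests on 0 counts in one group. The next gene after Ppfibp1 in this order was Siglece, with 21, 39 and 27 counts in control mice against 128, 129 and 94 in diseased-BWF1 mice. The list thus follows no single threshold, since many genes with larger fold changes than Ppfibp1 are not on it.

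The pattern of at most 3 counts in each mouse of one group and at least 20 in each of the other was found for 10 genes of all 32879, namely Col22a1, Slc4a5, Tspan8, Cracd and 6 genes outside the list. Ahcy, the enzyme that hydrolyses S-adenosylhomocysteine, had 0, 3 and 0 counts in control mice and 46, 37 and 20 in diseased-BWF1 mice. The other 5 were low in diseased-BWF1 mice. Ifi44l, an interferon-induced gene, had 244, 53 and 52 counts in control mice and 0 in each diseased-BWF1 mouse. Clec4g, Galnt9, Gfra2 and Robo2 had 21 to 55 counts in control mice and 0 to 3 in diseased-BWF1 mice. Only Ifi44l of the 6 was at 0 throughout its low group, as the 4 genes of the list were.

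**Figure D2:**
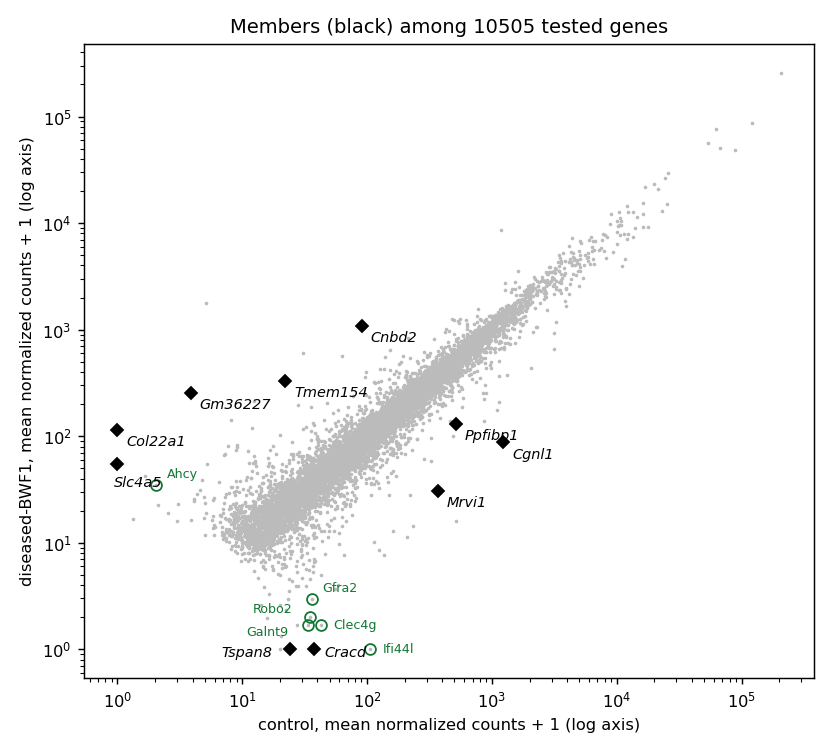
Mean normalized counts plus 1 of control mice (x, log axis) and of diseased-BWF1 mice (y, log axis) for the 10505 tested genes (grey), the 10 genes (black diamonds) and the 6 other genes with the on-off pattern (green circles). Col22a1 and Slc4a5 lie on the left edge, Tspan8, Cracd and Ifi44l on the lower edge, and Ppfibp1 lies closest of the 10 to the main cloud.

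The counts were deposited per RefSeq record, that is per annotated transcript, and the records of each gene were read one by one. The 10 genes had 61 records, of which 30 had 0 counts in all mice and 26 had at least 10 counts over the 6 mice. Tmem154, Slc4a5 and Gm36227 were each read from 1 record alone. Of the other 7 genes, 5 had all such records on the same side, and in Cnbd2 and Ppfibp1 at least 1 record went the other way. Reads that fit several transcripts of a gene must be divided between its records, and Salmon, which the submitters' processing notes name, does so by a statistical estimate. The values of single records are therefore less certain than their sum.

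In Cnbd2 the difference lay on a single record. NM_001316755.1 had 74, 58 and 58 counts in control mice and 1030, 934 and 1298 in diseased-BWF1 mice. The remaining records together had 28, 20 and 32 counts in control mice and 13, 13 and 6 in diseased-BWF1 mice. The count of the gene was therefore higher in diseased-BWF1 mice through 1 record, which held 70.4% of it in control mice against 99.0% in diseased-BWF1 mice, while the other records together had fewer counts there. With this record alone the log2 difference of the mean normalized counts plus 1 was 4.08. The other curated record of Cnbd2, NM_027585.2, had 0 counts in all 6 mice.

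The 2 curated Cnbd2 transcripts end differently. NM_001316755.1 corresponds to the GENCODE transcript Cnbd2-202 of 1758 bases in 10 exons, and its last exon, chr2:156356526-156357102 (577 bases, GRCm38), is absent from NM_027585.2, which has 13 exons. Of the 3947 different 75-base sequences of Cnbd2 transcripts, 362 (9.17%) also occur in transcripts of other genes, and all 362 lie in this last exon, where they make up 72.0% of the possible 75-base sequences. Most of them, 318, are shared with Cep85, and 3 further genes hold some of them, Gm26880 with 121, Apobec3 with 29 and Miga1 with 7. A read from this exon may thus have more than 1 possible origin. Cep85, a centrosomal protein gene, had 51, 34 and 11 counts in control mice and 15, 34 and 17 in diseased-BWF1 mice. Apobec3, a cytidine deaminase gene, had 205, 120 and 134 counts against 139, 91 and 127. Neither was called different by edgeR, with log2 fold changes of -0.47 (adjusted p = 0.751) and -0.35 (adjusted p = 0.503). Miga1 had 51, 40 and 36 counts against 31, 47 and 31, and Gm26880 was not analysed here. Whether reads of other loci added to the Cnbd2 record was not tested. None of the 8 other genes held by GENCODE shared a 75-base sequence with another gene, and Gm36227 is not in that annotation.

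Mrvi1 was read from predicted records only, since both of its curated records had 0 counts in all mice. XM_006507416.3 had 300, 184 and 398 counts in control mice and 0, 14 and 1 in diseased-BWF1 mice. The remaining Mrvi1 records had 57, 141 and 9 counts in control mice and 23, 29 and 23 in diseased-BWF1 mice, so the groups overlapped there. On its most abundant record Mrvi1 came close to on-off, with a log2 difference of mean normalized counts plus 1 of -5.62, whereas the gene as a whole was still present in every diseased-BWF1 mouse. Cgnl1 was read from 2 curated records. NM_001304362.1 had 138, 198 and 72 counts in control mice and 0 in each diseased-BWF1 mouse, and NM_026599.5 had 1231, 1351 and 771 against 72, 121 and 68. GENCODE matches both records to 1 transcript, Cgnl1-201. In Cgnl1 the record with fewer counts was thus the one at 0, and the more abundant record was still counted in every diseased-BWF1 mouse.

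Ppfibp1 was spread over 7 counted records. NM_026221.2 held 77.4% of the counts, with 423, 346 and 408 in control mice and 119, 122 and 94 in diseased-BWF1 mice. NM_001170433.1 had 147, 50 and 34 counts against 0, 0 and 22. The even level of the summed gene in diseased-BWF1 mice, 130 to 133 counts, was not seen in its single records, which varied from mouse to mouse. Col22a1 was read from NM_027174.1, with 101, 119 and 53 counts in diseased-BWF1 mice, and from XM_006521381.2, with 0, 49 and 19. Both were at 0 in control mice, and the high value of diseased-BWF1 replicate 2 came partly from the predicted record.

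Tspan8 and Cracd were thinly spread over several records. The most abundant Tspan8 record, XM_006513542.2, had 16, 14 and 4 counts in control mice and was 1 of 5 counted records. Cracd had 18, 28 and 0 counts on XM_006535010.3, 0, 18 and 25 on XM_011249480.1 and 19, 0 and 0 on XM_006535004.3. No Cracd record was present in all 3 control mice, and its curated record had 0 counts in every mouse. Each of these 3 records was at 0 in every diseased-BWF1 mouse, but only in the gene sum did the groups separate mouse by mouse.

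**Figure D3:**
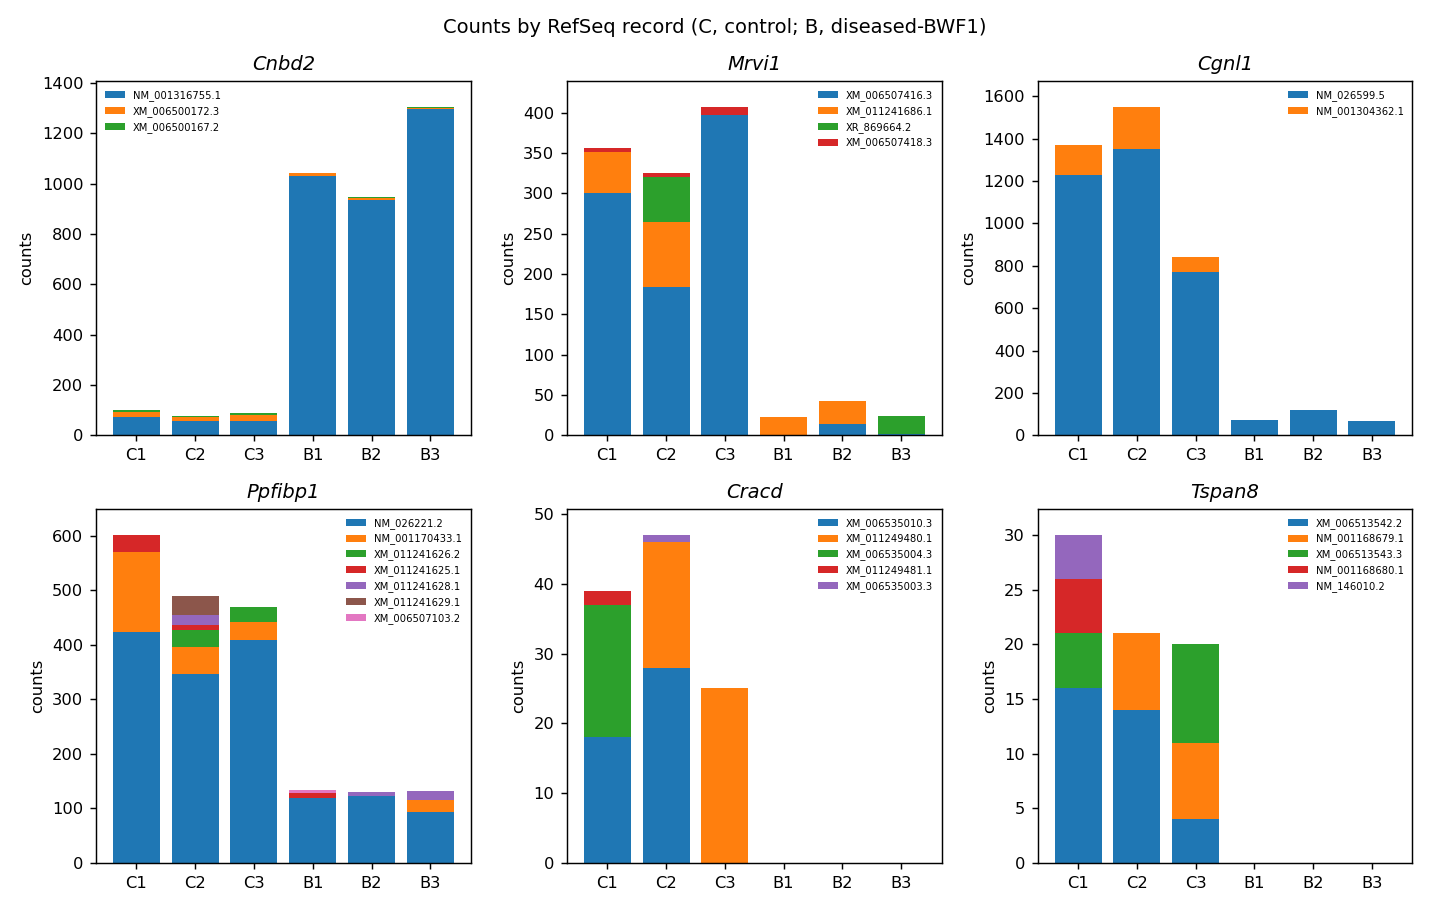
Counts per mouse of Cnbd2, Mrvi1, Cgnl1, Ppfibp1, Cracd and Tspan8, stacked by RefSeq record (C, control replicates 1 to 3; B, diseased-BWF1 replicates 1 to 3; each panel has its own linear axis from 0). The Cnbd2 difference is 1 colour, that of Mrvi1 is mainly 1 colour, and Cracd changes its colours between control mice.

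Levels can be compared between genes only per length, which GENCODE gave for the main record of 6 genes. In control mice these stood, in CPM per kilobase, at 42.0 ± 9.59 for Cgnl1, 20.9 ± 3.51 for Ppfibp1, 9.19 ± 0.554 for Cnbd2 and 1.62 ± 0.228 for Tmem154. In diseased-BWF1 mice Cnbd2 stood at 163 ± 29.9, Tmem154 at 26.2 ± 8.40, Ppfibp1 at 6.05 ± 0.786, Cgnl1 at 3.39 ± 1.18, Slc4a5 at 2.83 ± 0.784 and Col22a1 at 2.71 ± 1.01. Per length, the highest of these genes in control mice was a junction gene and the highest in diseased-BWF1 mice was Cnbd2, while the diseased-BWF1 levels of Cgnl1, Slc4a5 and Col22a1 lay within each other's spread.

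The 10 genes lie on 8 chromosomes of GRCm38.p6. Cnbd2 is at chr2:156311946-156375638, Tmem154 at chr3:84666192-84704575, Cracd at chr5:76657629-76873554, Mrvi1 at chr7:110868257-110982909, Tspan8 at chr10:115816817-115849893 and Col22a1 at chr15:71795795-72150979. Slc4a5, at chr6:83207580-83304945, and Ppfibp1, at chr6:146886609-147032025, are 63.6 Mb apart. Gm36227, at chr9:41911949-41919198, and Cgnl1, at chr9:71626507-71809300, are 29.7 Mb apart. Because the groups differ in 1 parental strain, the genes around each of the 10 were examined, which the choice of the list did not use.

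Within 500 kb of the 10 genes, 86 other genes passed the filter. Of these, 2 were called by edgeR's quasi-likelihood test, that is, they differed by 1.5-fold or more with an adjusted p below 0.05 (2.33%), against 1.22% of all 10505 genes tested. Groups without overlap were found for 22 neighbours (25.6%), beside 20.8% of all genes. DESeq2 called 5 neighbours (5.81%), beside 3.41% of the same 10505 genes. The median absolute log2 fold change of the neighbours was 0.23, and that of all genes tested was 0.22. An unadjusted p under 0.05 was found for 18 neighbours (20.9%), beside 13.2% of all genes. An absolute log2 fold change over 1 was found for 9 neighbours (10.5%), beside 5.52% of all genes, and one over 2 for 1 neighbour (1.16%), beside 1.33%.

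That gene was Gm40514, annotated as protein-coding, which ends 1.01 kb from Gm36227. Gm40514 had 0, 3 and 16 counts in control mice and 140, 155 and 130 in diseased-BWF1 mice. It rose, with a fitted log2 fold change of 4.40 (SE 0.76, adjusted p = 0.0469, edgeR). Gm36227 and Gm40514 were therefore a pair of adjacent genes that both stood high in all 3 diseased-BWF1 mice. Control replicate 3, the highest for Gm40514 at 16 counts, was the lowest for Gm36227 at 1 count. Without that mouse the log2 fold change of Gm40514 was 6.54, and it stayed called (adjusted p = 0.0163), but leaving out any of the other 5 mice in turn raised the adjusted p to 0.0674 or more. It was also not called with age as a covariate (adjusted p = 0.0662) or under the replicate block (adjusted p = 0.104). On the other side of Gm36227, Sorl1, a sorting receptor gene 45.5 kb away, had 30, 33 and 8 counts against 81, 59 and 41 and was not called (adjusted p = 0.24, edgeR).

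The other called neighbour was Nagk, the gene of N-acetylglucosamine kinase, 490 kb from Slc4a5. Nagk had 328, 291 and 322 counts in control mice and 163, 151 and 163 in diseased-BWF1 mice, and it fell with a log2 fold change of -0.998 (SE 0.15, adjusted p = 0.0326, edgeR). It went the opposite way to Slc4a5, and it was not called when any 1 of the 6 mice was left out (adjusted p from 0.0519 to 0.13), under the replicate block (0.0687) or on curated records (0.111). Between them, Mthfd2, a mitochondrial folate enzyme gene 0.759 kb from Slc4a5, had 7, 11 and 5 counts in control mice and 20, 37 and 31 in diseased-BWF1 mice. The fitted log2 fold change was 1.92 (SE 0.42), which did not pass the test (adjusted p = 0.0944, edgeR), although the groups did not overlap. On the other side Dctn1, a dynactin subunit gene 7.46 kb away, had a log2 fold change of -0.07.

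The nearest tested genes of the other 8 were not called by edgeR, although Phf20 and Arfip1 had an unadjusted p under 0.05, and apart from Lyve1 their log2 fold changes lay between -0.41 and 0.43. Beside Cnbd2, Phf20 at 1.99 kb had a fitted log2 change of -0.41 (adjusted p = 0.298, edgeR) and Norad at 12.4 kb one of 0.12. Scand1, which overlaps the start of Cnbd2, had 193, 131 and 166 counts against 151, 140 and 129, a log2 fold change of -0.23. The libraries were stranded, but whether the counting used strand is not given in the sources used here. Beside Cracd, Aasdh at 0.105 kb had 0.32 and Cep135 at 11.2 kb had -0.08. Beside Ppfibp1, Mrps35 at 10.7 kb had 0.19 and Arntl2 at 53.1 kb had -0.03.

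Beside Mrvi1, the hyaluronan receptor gene Lyve1 at 5.30 kb had 571, 604 and 997 counts in control mice and 117, 192 and 655 in diseased-BWF1 mice, so that its groups overlapped, and its log2 fold change of -1.22 (SE 0.64) did not pass the test (adjusted p = 0.481, edgeR). On its other side Ctr9 at 46.0 kb had a log2 fold change of -0.07. Beside Cgnl1, Tcf12 at 35.0 kb had 0.08 and Polr2m at 141 kb had 0.00. The other 4 tested neighbours of Cgnl1 lay farther off, at 330 to 465 kb, and each had a positive log2 fold change with an unadjusted p under 0.05, the opposite sign to Cgnl1. The values were 1.85 for Gm32511, 1.32 for Aldh1a2, 1.14 for Aqp9 and 0.82 for Zfp280d. None of them was called by edgeR (smallest adjusted p = 0.219), and the median absolute log2 fold change of the 6 was 0.98. Of the distant neighbours of other genes, Ccdc91, 444 kb from Ppfibp1, had 57, 49 and 46 counts against 6, 20 and 20, a log2 fold change of -1.71 with the same sign as Ppfibp1 (adjusted p = 0.127, edgeR). The noncoding 5430405H02Rik, 477 kb from Cnbd2, had 6, 7 and 6 against 17, 16 and 15, a log2 fold change of 1.31 with the same sign as Cnbd2 (adjusted p = 0.157). Ergic3, 294 kb from Cnbd2, had -0.74, the opposite sign to Cnbd2. DESeq2 called Ccdc91 and Ergic3, besides Gm40514, Nagk and Mthfd2, which were described above. Beside Tmem154, Arfip1 at 83.4 kb had 0.43 and Fbxw7 at 110 kb had -0.30. Col22a1 and Tspan8 had tested genes on one side only, with Trappc9 at 439 kb (-0.09) and Zfc3h1 at 384 kb (0.27).

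**Figure D4:**
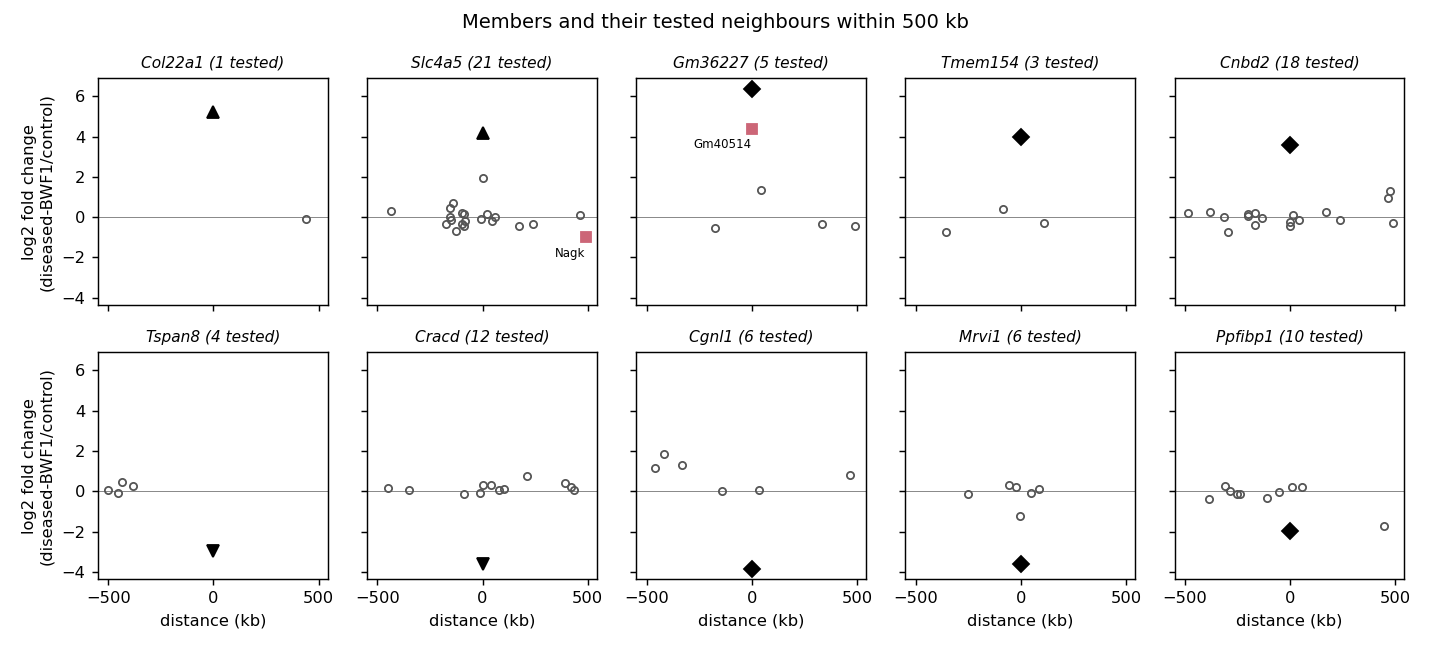
Log2 fold change (diseased-BWF1 over control) of the 86 tested neighbours against their distance in kb from each of the 10 genes, with called neighbours as red squares, other neighbours as open circles and the gene itself in black at 0 kb. Triangles mark lower bounds of genes with 0 counts in one group, and Gm40514 is the only neighbour that lies beyond 2.

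Family members and partners of the 10 genes were compared next, from lists of 136 genes of which 59 were tested. The lists were written with earlier results of these data known. Their shares beside those of all genes are therefore a description only. One gene was called by edgeR (1.69%), beside 1.22% of all genes tested. Groups without overlap were found for 22 of the 59 (37.3%), beside 20.8% of all genes, and an unadjusted p under 0.05 for 16 (27.1%), beside 13.2%. DESeq2 called 7 of the 59 (11.9%), beside 3.41% of the genes tested. The called gene was Tspan32, a tetraspanin of blood cells, with 70, 55 and 49 counts in control mice and 238, 175 and 126 in diseased-BWF1 mice. It rose, with a fitted log2 fold change of 1.63 (SE 0.23, adjusted p = 0.0278, edgeR), the opposite direction to Tspan8. Tspan32 stayed called without diseased-BWF1 replicate 3 (adjusted p = 0.0191) and was not called when any other mouse was left out (adjusted p from 0.0769 to 0.108), under the replicate block (0.0568) or on curated records (0.12).

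Of 17 tested tetraspanins, 1 rose and none fell by this rule, and their median log2 fold change was -0.04. An unadjusted p under 0.05 was found for 6 of the 17, and groups without overlap for 7. Those with the most counts, Cd53 and Cd37, had log2 fold changes of -0.41 (adjusted p = 0.223, edgeR) and 0.23 (adjusted p = 0.797). DESeq2 also called Cd9, with a log2 fold change of 1.41, and Cd63, with -1.54, which edgeR left at adjusted p of 0.0587 and 0.0864.

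Among 3 tested SLC4 bicarbonate transporters none was called by edgeR or DESeq2, and 1 had an unadjusted p under 0.05. Slc4a2 had a fitted log2 change of 0.20 (adjusted p = 0.575, edgeR) and Slc4a7 one of 0.40 (adjusted p = 0.542). That gene, Slc4a4, is another electrogenic sodium bicarbonate cotransporter and is named here after its values were seen. Slc4a4 had 84, 43 and 50 counts in control mice and 0, 9 and 0 in diseased-BWF1 mice, the reverse of Slc4a5, and its log2 fold change of -4.21 (SE 0.88) did not pass the test (adjusted p = 0.081, edgeR). Within this small family 1 cotransporter was thus counted only in diseased-BWF1 mice, while the other had over 40 counts in each control mouse and at most 9 in any diseased-BWF1 mouse.

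The remaining lists held no gene called by edgeR. Of 8 tested liprins and partners, 2 had an unadjusted p under 0.05, the 2 with the most counts being Lasp1 (log2 fold change 0.06) and Kank2 (-0.06), and DESeq2 called Ptprd (-3.42) and Ptprs (1.66), receptor phosphatases of the kind that bind liprins. It also called a liprin gene that was below the edgeR filter, Ppfia4 (-4.28), which had 32, 7 and 21 counts in control mice and 0, 2 and 1 in diseased-BWF1 mice. Of 5 tested tight junction genes, 3 had an unadjusted p under 0.05, Arhgef2 and Tjp1 had the most counts and log2 fold changes of 0.17 and 0.71, and DESeq2 called Jam2 (-2.62). Of 6 tested partners of the Mrvi1 protein, 2 had an unadjusted p under 0.05. Itpr2, an inositol trisphosphate receptor gene that is also a neighbour of Ppfibp1, had -0.40, Lrmp, the relative of Mrvi1, had -0.24, and DESeq2 called the cGMP phosphodiesterase gene Pde5a (1.77). The 13 tested actin capping genes lay between -0.41 and 0.23, 1 of them with an unadjusted p under 0.05, with Add3 at 0.20 and Capzb at -0.15, so that none moved on the scale of Cracd. The 6 tested cyclic nucleotide binding genes lay between -0.12 and 0.60, again 1 with an unadjusted p under 0.05, with Prkar1a at -0.05 and Prkacb at 0.09, and the 1 tested FACIT collagen, Col20a1, had 0.17.

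**Figure D5:**
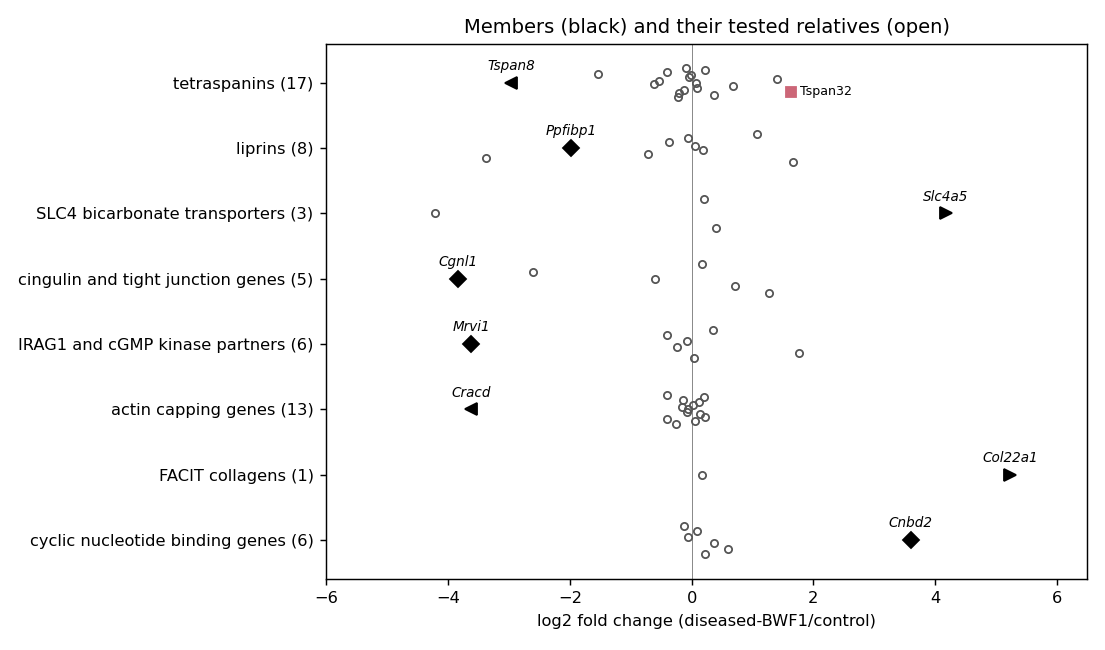
Log2 fold change (diseased-BWF1 over control) of 59 tested relatives and partners in 8 lists (number tested in brackets), with the called gene Tspan32 as a red square, other genes as open circles and the gene each list was built around in black. Arrowheads mark lower bounds of genes with 0 counts in one group, and the actin capping genes all lie between -0.41 and 0.23.

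Markers of macrophages and of other cells were read in the same libraries. The 7 macrophage markers, Adgre1, Itgam, Csf1r, Mertk, Lyz2, Cd14 and Spi1, were all present and summed to 36015 to 48189 CPM in control mice and 31672 to 37368 in diseased-BWF1 mice, most of it Lyz2. Of these 7 markers, 2 had CPM ranges without overlap, beside groups without overlap in 20.8% of all genes tested (normalized counts). Adgre1 was lower in diseased-BWF1 mice and Cd14 was higher, the latter at 1364, 1557 and 1624 counts against 2307, 3987 and 2219. The 7 large PM markers summed to 26710 to 28594 and 27576 to 36472, most of it Prg4, and Gata6 and Timd4 were present in every mouse. The CPM ranges of 3 of these 7 markers did not overlap, beside the same 20.8% of all genes. Prg4 was higher in diseased-BWF1 mice, and Icam2 and Timd4 were lower, the latter at 5800, 4584 and 3969 counts against 3845, 3758 and 2295. The 7 markers of small PMs and monocytes, nearly all of whose sum is Fn1, reached 42036 to 64891 and 65740 to 70947. These ranges did not overlap, but the counts of the other 6 markers did, with Ccr2 at 13, 8 and 2 against 24, 6 and 31 and Irf4 at 57, 61 and 24 against 211, 59 and 84. The part of these markers or of the cells they mark in the differences of the 10 genes was not tested.

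Markers of cell types outside the sort had few counts, but some were above the floor of 3 counts. Vwf had 13, 10 and 3 counts in control mice and 2, 21 and 6 in diseased-BWF1 mice. S100a8 had 8, 8 and 13 counts against 11, 11 and 17. The B cell marker Cd79a had 13, 3 and 10 counts against 7, 6 and 1. Of 7 mesothelial markers, Msln, Krt8 and Krt18 were at 0 in all mice and the sum was at most 0.652 CPM in any mouse. The 4 spermatogenic markers Prm1, Prm2, Tnp1 and Acrv1 were at 0 in all mice. The 7 fibroblast and smooth muscle markers summed to 1.30 to 3.15 CPM in control mice and 0.531 to 0.80 in diseased-BWF1 mice, with Col3a1 at 0 in all, and these ranges did not overlap. The lower sum rests on few counts near the floor. Of the 7 markers 1, Acta2, had CPM ranges without overlap, beside groups without overlap in 20.8% of all genes tested (normalized counts). Acta2 had 2, 5 and 4 counts in control mice against 1, 0 and 0 in diseased-BWF1 mice. Col1a1 and Pdgfra had a higher mean CPM in diseased-BWF1 mice. The part of these markers in the differences of Mrvi1 and Col22a1 was not tested. Of 6 endothelial cell and platelet markers Cdh5 was at 0 in all mice, with sums of 3.69 to 5.25 and 1.03 to 6.91.

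The 6 T and NK cell markers in the table summed to 0.296 to 3.15 CPM in control mice and 1.06 to 3.08 in diseased-BWF1 mice. Kit, Mcpt4, Tpsb2 and Fcer1a, 4 of 5 mast cell markers, were at 0 in all mice, and Ly6g and Mpo, of 5 neutrophil markers, were at 0 in all mice, with neutrophil sums of 2.10 to 4.44 and 3.19 to 4.80.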

How the data were processed

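RNA of cell-sorted PMs from 3 control and 3 diseased-BWF1 mice was measured as paired 75-base reads of stranded mRNA libraries. The authors deposited 1 table per mouse with whole numbers for 107193 RefSeq records, taken here as rounded estimated counts without normalization. The submitters' processing notes name Salmon 0.8.0, DESeq2 and GRCm38.p6. The aligner's settings and the annotation release are not given in the sources used here.

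The counts of 86466 records were summed over 32879 genes of the RefSeq table for GRCm38.p6. The 20727 records without a gene were not used in tests. Total counts were 3629901 to 5003360 per mouse. The gene list and the family, partner and marker lists were chosen with earlier results of these data known. Genes were fitted with edgeR 4.0.16 (filterByExpr, TMM normalization, quasi-likelihood test, Benjamini-Hochberg adjustment over 10505 genes) in R 4.3.3. Calls required a difference of 1.5-fold or more with an adjusted p below 0.05. Log2 fold changes are diseased-BWF1 over control. Their SE was derived as the absolute log2 fold change divided by the square root of the F statistic of the quasi-likelihood test. No call or p is given for the 10 listed genes. Normalized counts used DESeq2 1.42.0 size factors, and errors are SDs over 3 mice. No pair of libraries agreed within sampling noise, with a chi-square per gene of 9.56 or more. Neighbours were tested genes within 500 kb of the gene body. Named besides the list were every called neighbour or relative, the nearest tested gene on each side, the 2 most abundant relatives per list, and genes outside the list with the on-off pattern. Slc4a4, neighbours and relatives called by DESeq2 alone, and uncalled distant neighbours were named after their values were seen. Promoters came from RefSeq, and 75-base sequences from GENCODE transcripts on GRCm38. The code was tested on simulated data. Alternatives were DESeq2, other normalizations and filters, the replicate number as a block, age, curated records only, other windows and floors, the most abundant record, and each mouse left out. Some values that these rules cover are not reported here.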

Additional observations from a re-analysis of the deposited data

Results flagged for a closer look

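Records without a gene were not part of the comparisons above. Among these 20727 records, 17 had at most 3 counts in each mouse of one group and at least 20 counts in each mouse of the other, 11 of them low in control mice and 6 low in diseased-BWF1 mice. They stand beside 10 genes of 32879 with the same pattern. No gene name was given to them here, and their part in the patterns of the 10 listed genes was not tested.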

How the results depend on the processing

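The log2 fold changes or bounds of the 10 listed genes were recomputed under 119 alternatives in all, and none changed direction. For 4 of the 119 the value moved by more than the spread between mice, 1 for Cnbd2 on curated records and 1 each for Cnbd2, Ppfibp1 and Mrvi1 on the most abundant record alone. The latter values are differences of log2 mean normalized counts plus 1 and not fitted, so that both the record and the estimate differ. They were 4.08, -1.82 and -5.62. The 4 genes at or under the floor stayed 4 with a floor of 0 or 1 and without each mouse in turn, became 5 with a floor of 10, and were 3 on curated records, where Mrvi1, Cracd and Gm36227 have no counts.

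Of all genes, 128 were called. DESeq2 called 370, omitting the filter gave 259, requiring 10 counts in every library 84, and curated records only 16. Leaving out 1 mouse gave 21 to 51, with fewer mice to fit. Of the neighbours, 2 were called, but 5 with DESeq2 (5.81%, beside 3.41% of all genes tested), 1 when 10 counts were required in every library, 0 on curated records, 1 within 250 kb, and 0 to 1 without a mouse. Of the relatives, 1 was called, but 8 with DESeq2 and 8 with no filter, where genes below the filter count too, 0 on curated records, and 0 to 2 without a mouse. The cause was not tested. Of the called genes named above, Nagk was called in 6 of 14 alternatives, Gm40514 in 5 of 12 and Tspan32 in 7 of 14. The labels state no pairing of same-numbered mice, and the main fit used none. Their deviations correlated by 0.128, 0.00973 and 0.162. Control replicates 1 and 3 correlated best with the diseased-BWF1 mouse of the same number, and control replicate 2 with diseased-BWF1 replicate 1. These values do not settle whether the mice were paired. The replicate block gave 38 called genes, 0 neighbours and 0 relatives. Behind these edgeR counts of 0, an unadjusted p under 0.05 was found for 14 to 19 neighbours, 15 to 18 relatives and 10.6% to 13.7% of all genes without a mouse, for 11, 11 and 10.3% on curated records, and for 16, 15 and 13.1% under the block. No scaling moved the median log2 fold change of all genes by over 0.1. At this depth, a level under the floor of 3 counts could not be told from absence.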
